A study of Mus musculus with 4 samples.

Results

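The tumour necrosis factor (TNF) superfamily is a set of ligands and receptors that lymphocytes use to signal survival, costimulation or death to each other. Its members were read here in RNA from 4 mouse lymphomas. They were chosen by name: every gene of the count table whose symbol has the form Tnfsf or Tnfrsf followed by a number and at most 1 letter, with Tnf, Lta, Ltb, Ltbr, Cd27, Cd70, Cd40, Cd40lg, Fasl and Edar added. This gave 41 of 24943 genes, 17 ligands and 24 receptors. All 41 symbols matched the reference annotation. Fas, Ngfr, Eda, Eda2r and Relt belong to the superfamily but carry other names, and were read with the pathway genes.

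Each ligand of this superfamily is a trimer, most often held in the membrane and sometimes shed, and it clusters its receptor on the receiving cell. Receptors with a death domain can recruit caspases, and many receptors of the superfamily act through TRAF adaptors and switch on canonical NF-kB, noncanonical NF-kB or both. In the spleen the lymphotoxins shape the white pulp, and BAFF and its receptor BAFF-R keep B cells alive. CD40, CD27, OX40 and 4-1BB carry costimulatory signals between B cells, T cells and antigen-presenting cells.

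The series concerns a TP63 fusion in mouse lymphoma. The 4 samples, titled GW19, GW95, GW255 and GW328 and called lymphomas 1 to 4 here in accession order, carry identical labels: lymphoma as the tissue, spleen cells as the cell type, transgenic as the genotype, and a spleen enlarged by tumour. The labels name neither the transgene, its promoter, the strain nor the age, and they describe no untreated or non-tumour sample. Red cells were lysed and the remaining spleen cells were used whole, so each library mixes tumour cells with other spleen cells. Because there is 1 group and no contrast, no test between groups was made. Differences are between single libraries, each interval is an exact Poisson or binomial 95% interval that covers counting error only, and in such mixed RNA fewer cells of a type and less RNA per cell cannot be told apart. Nothing in the labels says that the libraries came from separate animals.

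The libraries held between 7773546 and 9602413 counts. Levels are given as CPM, counts scaled to the effective size of each library, a scale on which a count of 0 allows up to 0.379, 0.335, 0.294 and 0.330 CPM in lymphomas 1 to 4 (3 counts per library). The libraries stood far apart in lineage. All 13 measured B cell genes differed 8-fold or more between their highest and lowest library (16.3% of all genes). Lymphoma 1 was lowest for 12 of them (35.7% of all genes), and the 13 summed to 107, 1816, 6009 and 7627 CPM. Of 13 T cell genes 11 were lowest in lymphoma 3 (21.3% of all genes), and Cd3d was left with 10 counts there. The T cell sums were 6178, 4819, 892 and 1092 CPM. In lymphoma 3 most of that sum was Zap70 (482 CPM) and Lck (315 CPM), both lowest in lymphoma 4. The median log2(CPM + 1) of the T cell genes was 8.51, 8.21, 2.61 and 6.19. Early B cell genes summed to 1043 CPM in lymphoma 3 and to between 21.9 and 120.2 CPM elsewhere. Lymphoma 2 may not be independent of lymphoma 1: over 35 genes with at least 50 CPM in lymphoma 1 and at most 5% of that in lymphomas 3 and 4, no member among them, the ratio of lymphoma 2 to lymphoma 1 had a median of 0.668, and 33 of the 35 ratios lay within 0.8 to 1.25 times that median.

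Of the 41 members, 36 reached 1 CPM in at least 1 library and 15 did so in every library, counted for this filter on CPM of the plain library totals, before scaling to effective size. On that unscaled CPM, lymphomas 1 to 4 had 22, 33, 19 and 36 members at 1 CPM or more. Edar, Tnfrsf11b and Tnfsf13 had 0 counts in every library, and Cd70 and Tnfsf15 had counts but stayed under 1 CPM. Only the 36 members past this filter enter the counts below.

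Lymphoma 4 held the highest level of most members, and no member was lowest there. The highest library was lymphoma 4 for 25 of 36 members (69.4%), against 34.0% of the 13543 genes past the filter. It was lymphoma 1 for 4 members (29.4% of all genes), lymphoma 2 for 5 (6.32%) and lymphoma 3 for 2, Tnfrsf13b and Tnfrsf10b (30.4%). The lowest library was lymphoma 3 for 21 members (58.3%, against 21.3% of all genes) and lymphoma 1 for the other 15 (41.7%, against 35.7%). Lymphomas 2 and 4 were lowest for 0 members, against 5.07% and 33.2% of all genes. Tnfsf12, Tnfsf13b and Tnfsf18 reached 1 CPM only in lymphoma 4, so the filter itself set their highest library. Without lymphoma 4, 33 members passed the filter. How many of all genes passed only through lymphoma 4 was not counted. Leaving out lymphoma 2 left 27 members highest in lymphoma 4 and 21 lowest in lymphoma 3, a setting without a computed share of all genes.

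**Figure D1:**
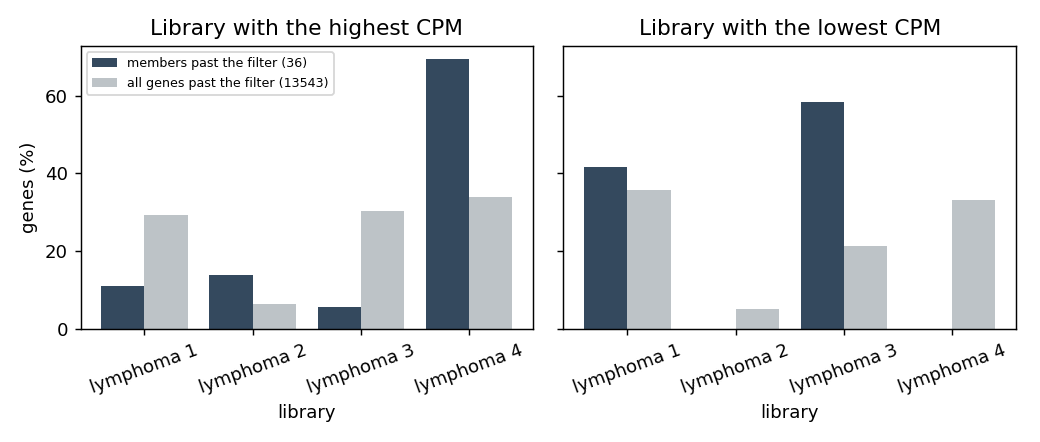
Share of genes (%, vertical axis from 0) whose highest (left) or lowest (right) CPM fell in each library, for the 36 members past the filter (dark bars) and all 13543 genes past the filter (grey bars). The dark bar for highest reaches 69.4% in lymphoma 4, and the dark bars for lowest are at 58.3% in lymphoma 3 and 41.7% in lymphoma 1.

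The members were also widely spread. In 17 of 36 members (47.2%), 8 ligands and 9 receptors, CPM + 1 spanned a range of 8-fold or more over the 4 libraries, against 16.3% of all genes. Tnfsf13b, among these 17, passed the filter only through lymphoma 4. The SD of log2(CPM + 1) over the 4 libraries had a median of 1.20 over members and 0.70 over all genes. The count was 8 without lymphoma 3 (10.8% of all genes) and 9 without lymphoma 4 (8.94%). It was 7 when FPKM + 1 was used in place of CPM + 1, where the share of all genes was 6.63%. FPKM values were lower by median than CPM, so adding 1 narrows their ranges more. No member stood 8-fold or more above the next library with at least 10 CPM, a rule that 1.67% of all genes met. The members that lay below the other libraries by that margin numbered 3, Cd27 and Tnfrsf8 in lymphoma 3 and Tnfrsf13c in lymphoma 1, against 1.88% of all genes. Without lymphoma 2, 7 members stood apart above or below, and without lymphoma 4 also 7. The share of all genes standing apart was not computed without a library, so these counts cannot be set against 1.67% and 1.88%.

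**Figure D2:**
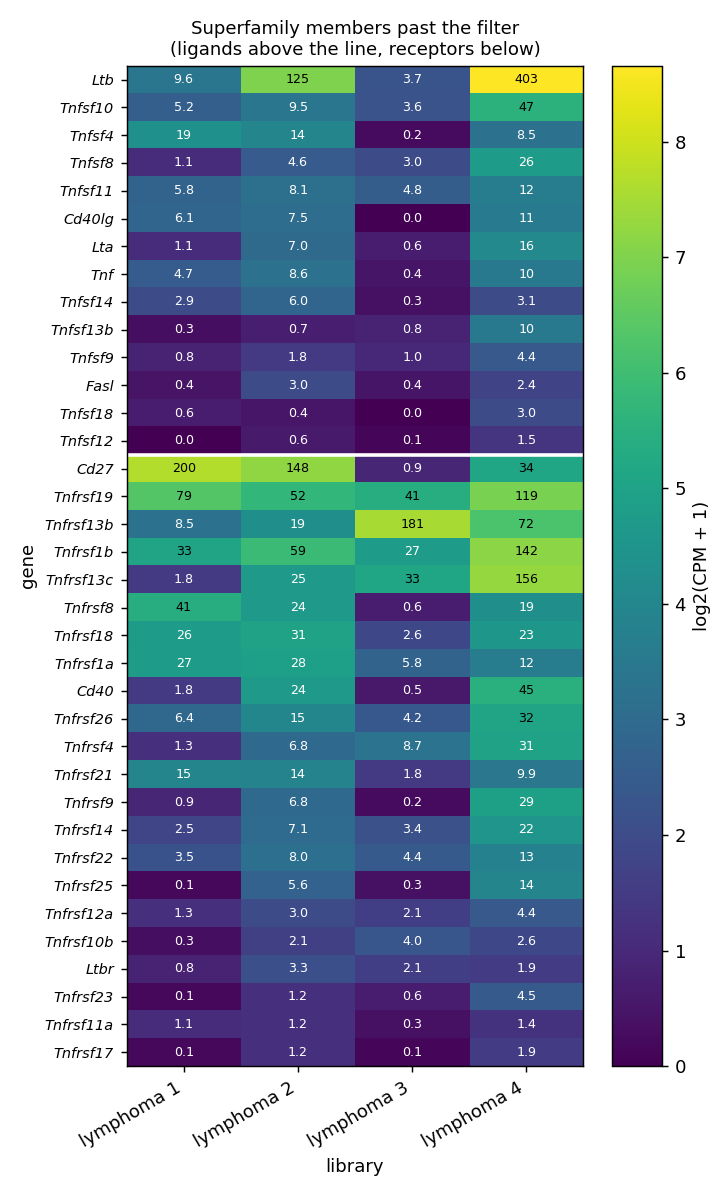
CPM (numbers in the cells) and log2(CPM + 1) (colour scale) of the 36 members past the filter in the 4 libraries, with 14 ligands above the white line and 22 receptors below it, each set ordered by mean CPM. Ltb, Cd27 and Tnfrsf13b hold the brightest cells, and the column of lymphoma 3 is the darkest for most ligands.

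Among ligands, a single gene, Ltb, made up most of the RNA where ligand RNA was abundant. Ltb encodes lymphotoxin beta, the membrane anchor of the lymphotoxin heterotrimer. It lies next to Tnf, the founding inflammatory cytokine of the superfamily, and Lta, which encodes lymphotoxin alpha, on chromosome 17 (GRCm38). Ltb spans chr17:35194439-35196320 on the plus strand, Tnf chr17:35199381-35202007 and Lta chr17:35203165-35205351, both on the minus strand, and all 3 are protein coding. Bases before their starts are shown because the 3 genes are neighbours that shared the order of the libraries. They are from RefSeq (GRCm38.p6), 5′ to 3′ on the strand of each gene, at chr17:35194359-35194438 for Ltb, chr17:35202008-35202087 for Tnf and chr17:35205352-35205431 for Lta. Capitals mark a match to the kB consensus, the motif of NF-kB, in Ltb and to TATAAA in Tnf.
Ltb: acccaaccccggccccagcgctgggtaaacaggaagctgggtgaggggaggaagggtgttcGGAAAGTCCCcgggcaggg
Tnf: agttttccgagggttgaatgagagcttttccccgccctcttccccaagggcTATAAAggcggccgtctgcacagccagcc
Lta: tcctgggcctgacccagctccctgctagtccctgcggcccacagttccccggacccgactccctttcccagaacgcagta

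The stretch of Ltb runs from 148 to 69 bases before its RefSeq start, since the gene begins earlier in GENCODE and exonic bases were left out, while those of Tnf and Lta run from 80 to 1 bases before theirs. The match in Ltb begins 87 bases before the RefSeq start and that in Tnf 29 bases before it. Windows of 300 bases (250 before the start and 50 after it) were at hand for 31 members. Searched on both strands, the kB consensus was found in 3 of these 31 (Ltb, Tnfrsf8 and Tnfrsf9) and in 5.14% of 27025 genes. TATAAA was found in 6 of the 31 (Lta, Tnf, Tnfrsf17, Tnfrsf23, Tnfsf11 and Tnfsf18) and in 15.7% of genes. These are matches of letters and not binding sites. The kB match of Tnfrsf8, which encodes CD30, is shown as the second of the set outside an annotated exon, at chr4:145315283-145315372 on the minus strand, with the match in capitals.
Tnfrsf8: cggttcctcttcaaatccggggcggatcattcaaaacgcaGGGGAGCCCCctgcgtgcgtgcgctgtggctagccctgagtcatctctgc

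Each of the 3 genes of the Tnf locus had its top level in lymphoma 4, followed by lymphomas 2 and 1, and its bottom level in lymphoma 3. Ltb was at 9.6 CPM (interval 7.56 to 12.0) in lymphoma 1 and 125 CPM (117 to 132) in lymphoma 2. It was at 3.73 CPM (2.64 to 5.12) in lymphoma 3, the lowest, and 403 CPM (390 to 416) in lymphoma 4, the highest. Lta was at 1.14, 7.03, 0.59 and 15.7 CPM, and Tnf at 4.67, 8.59, 0.39 and 10.4 CPM. The intervals of Ltb did not overlap between any libraries, whereas those of Tnf overlapped between lymphoma 2 (6.78 to 10.7) and lymphoma 4 (8.45 to 12.8), and those of Lta between lymphoma 1 (0.52 to 2.16) and lymphoma 3 (0.22 to 1.28). Ltb differed 85.4-fold in CPM + 1 between its highest and lowest library, Lta 10.5-fold and Tnf 8.22-fold. The summed level of all ligands was 57.7, 197, 19.0 and 558 CPM, and Ltb made up 63.3% (61.0 to 65.5) of ligand counts in lymphoma 2 and 72.2% (70.9 to 73.4) in lymphoma 4. In lymphoma 1 the leading ligand by count was Tnfsf4 at 33.3%, and in lymphoma 3 it was Tnfsf11 at 25.3%. B cells and T cells are both known to make lymphotoxin beta, and the part of either in the level of Ltb was not tested. The order of libraries shared by these 3 genes was that of 12 of 36 members (33.3%, against 7.47% of all genes), an order singled out after its values were seen.

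The receptors of this branch had narrower ranges. Tnfrsf1a encodes TNFR1, the death domain receptor of TNF, with 26.7, 28.4, 5.79 and 11.8 CPM in lymphomas 1 to 4. Tnfrsf1b encodes TNFR2, which has no death domain, and was at 32.6, 59.0, 26.9 and 142 CPM. The 2 receptors did not keep their ratio: Tnfrsf1a made up 44.99% (40.4 to 49.6), 32.5% (29.3 to 35.9), 17.7% (13.8 to 22.3) and 7.64% (6.30 to 9.15) of their joint counts in lymphomas 1 to 4. Those 4 intervals are separate, and such a share within a library does not depend on the library size. Ltbr, the lymphotoxin beta receptor, which is known from stromal and myeloid cells more than from lymphocytes, had between 6 and 30 counts, at 0.76, 3.35, 2.06 and 1.87 CPM. On the per-length scale of the deposited FPKM, Ltb exceeded Ltbr in every library, at 6.05, 79.2, 2.54 and 247 FPKM against 0.35, 0.90, 0.78 and 0.85 FPKM. Of 12 stromal and endothelial genes, 5 (Col3a1, Pdgfra, Cxcl12, Ccl21a and Ccl19) had 0 counts in all libraries and 6 passed the filter. Among these were Pdgfrb at 16.2, 11.6, 10.7 and 0.33 CPM and Pecam1, which blood cells also express, at 46.7 to 146 CPM.

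**Figure D3:**
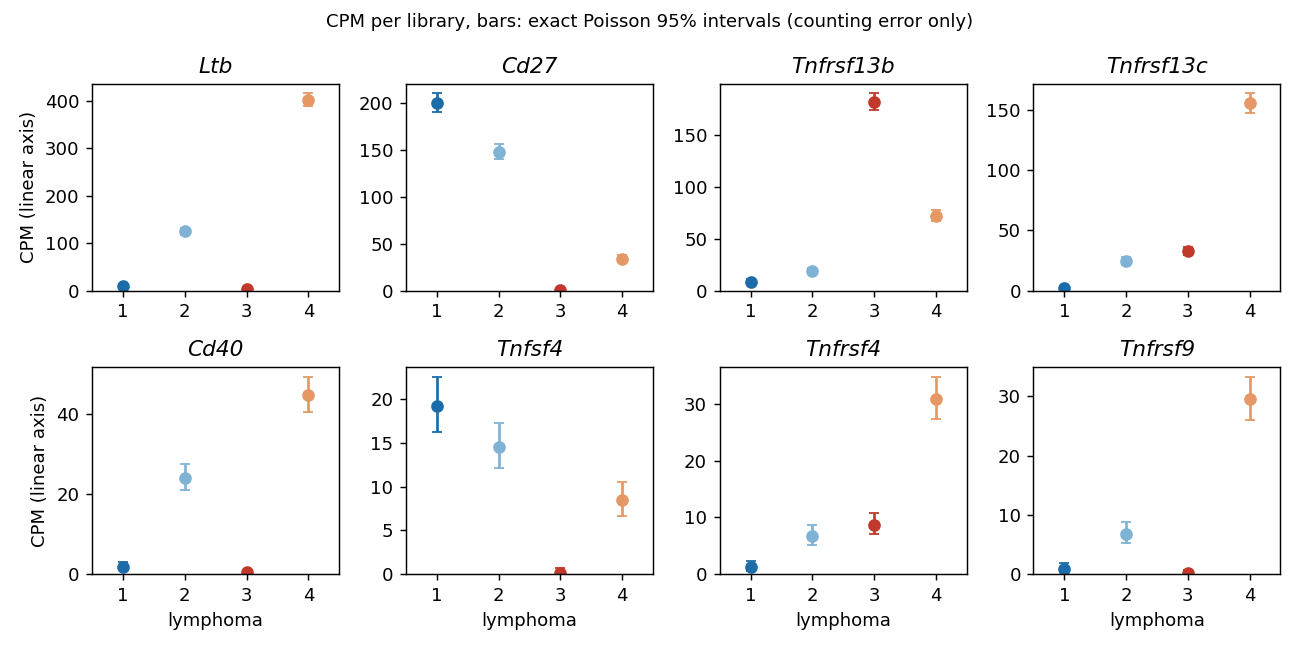
CPM (linear axis from 0) of 8 members in lymphomas 1 to 4, with exact Poisson 95% intervals as bars. Ltb is at 403 CPM in lymphoma 4 and Cd27 at 200.5 CPM in lymphoma 1, whereas Tnfrsf13b has its highest value, 181 CPM, in lymphoma 3.

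BAFF and its receptor BAFF-R keep mature B cells alive, and the receptor genes of this branch differed in order between libraries. Tnfrsf13c encodes the BAFF receptor BAFF-R, with 1.77, 24.6, 32.9 and 156 CPM in lymphomas 1 to 4. Tnfrsf13b encodes TACI, which binds BAFF and APRIL, and was at 8.46, 18.8, 181 and 72.1 CPM. BAFF-R was therefore highest in lymphoma 4 and TACI in lymphoma 3, with no overlap of intervals between those libraries (TACI 173 to 190 CPM in lymphoma 3 and 66.7 to 77.9 CPM in lymphoma 4). Of the pair's joint counts, Tnfrsf13b held 82.7% (72.7 to 90.2), 43.3% (38.4 to 48.4), 84.7% (83.1 to 86.1) and 31.7% (29.7 to 33.7). The share in lymphoma 1 rests on 81 counts. Tnfrsf17, the gene of the plasma cell receptor BCMA, had at most 17 counts and was at 0.13, 1.23, 0.10 and 1.87 CPM.

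The B cell gene Cd79a, a chain of the B cell receptor, gives a scale for these receptors within a library. It was at 24.0, 248, 1314 and 1151 CPM. Set against it, Tnfrsf13c made up 6.86% (3.80 to 11.2), 9.03% (7.92 to 10.2), 2.44% (2.19 to 2.71) and 11.9% (11.3 to 12.5) of the 2 genes' joint counts in lymphomas 1 to 4. Tnfrsf13b against Cd79a made up 26.1% (20.8 to 31.9), 7.06% (6.06 to 8.16), 12.1% (11.6 to 12.7) and 5.90% (5.47 to 6.35). Lymphoma 3 held the lowest share of BAFF-R per Cd79a count, while its share of TACI was above those of lymphomas 2 and 4. The place of lymphoma 3 for BAFF-R depends on the B cell gene chosen. Ms4a1 (167 and 99.2 CPM), Cr2, Fcer2a and Spib were lower in lymphoma 3 than in lymphoma 2, unlike Tnfrsf13c. The other measured B cell genes were higher in lymphoma 3 than in lymphoma 2, as Cd79a was. Shares against B cell genes other than Cd79a were not computed. Of 7 early B cell genes past the filter 5 were highest in lymphoma 3 (30.4% of all genes), with Vpreb3 at 483 CPM. Rag1 and Dntt were lowest there, at 0.39 and 1.47 CPM. The part of early B cell genes in these shares was not tested.

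The ligands of these receptors were scarce. Tnfsf13b encodes BAFF, known mainly from myeloid and stromal cells, and was at 0.25, 0.67, 0.79 and 10.3 CPM, with 2, 6, 8 and 94 counts. Its interval in lymphoma 4 (8.35 to 12.6 CPM) lay above those of the others, which overlapped each other. Lymphoma 4 was the highest library of 34.0% of all genes. It was also the highest for 9 of 11 neutrophil genes, 7 of 9 dendritic cell genes and 8 of 14 macrophage and monocyte genes. The last of these lists summed to 196, 439, 180 and 494 CPM, and its median log2(CPM + 1) was highest in lymphoma 2 (3.03, against 2.21 in lymphoma 4). Neutrophil genes summed to 28.7, 197, 107 and 710 CPM and dendritic cell genes to 105, 139, 50.05 and 201 CPM, and their part in the level of Tnfsf13b was not tested. Per length, BAFF-R exceeded BAFF in every library, at 0.40, 6.82, 9.45 and 44.1 FPKM against 0.06, 0.21, 0.20 and 3.76 FPKM. Tnfsf13, the gene of APRIL, had 0 counts in every library but FPKM of 0.11, 0.43, 0.79 and 0.15, so the 2 tables disagree on whether its RNA was seen. Its exons overlap those of Tnfsfm13, a joint gene model of Tnfsf12 and Tnfsf13 on the same strand, which also had 0 counts. Tnfsf12, the gene of TWEAK, overlaps the same model and had 0, 5, 1 and 14 counts, so its CPM are uncertain in the same way.

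**Figure D4:**
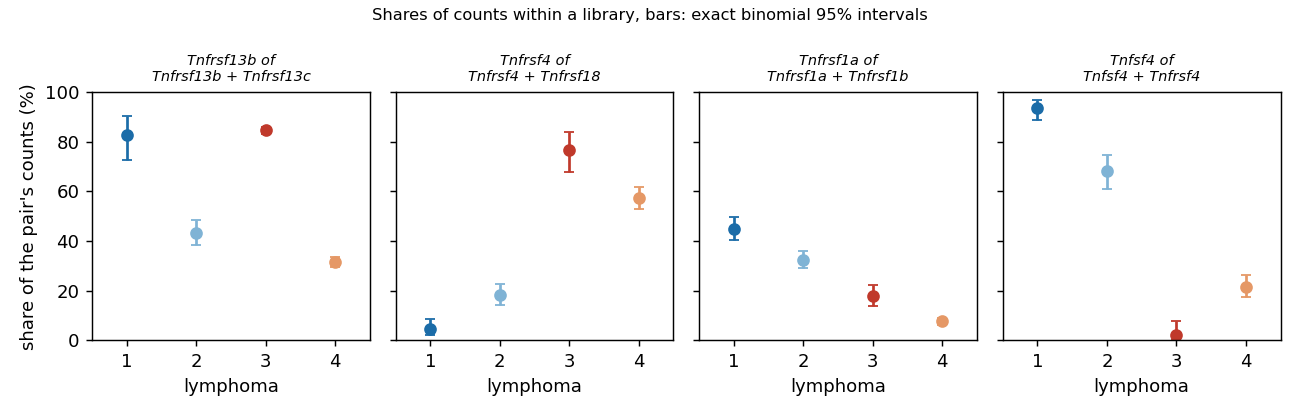
Share of joint counts (%, 0 to 100) taken by the first gene of 4 pairs within each library, with exact binomial 95% intervals. Tnfrsf13b takes 84.7% of its pair in lymphoma 3 and 31.7% in lymphoma 4, and Tnfrsf4 takes 4.65% of its pair in lymphoma 1 and 76.7% in lymphoma 3.

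CD40 and its ligand are the main contact signal between T helper cells and B cells. Cd40 had 1.77, 24.1, 0.49 and 44.5 CPM in lymphomas 1 to 4, with 5 counts in lymphoma 3. That library was rich in B cell RNA, and Cd40 made up 0.0373% (0.0121 to 0.0871) of the joint counts of Cd40 and Cd79a there. The share was 6.86% (3.80 to 11.2), 8.85% (7.75 to 10.04) and 3.73% (3.38 to 4.10) in lymphomas 1, 2 and 4, and no interval of these reached that of lymphoma 3. Cd40lg, on the X chromosome, was at 6.06, 7.47, 0 and 11.0 CPM. A count of 0 in lymphoma 3 allows up to 0.294 CPM by the limit of 3 counts, and its exact Poisson interval reaches 0.362 CPM. There 5 of 5 genes linked to the CD4 and CD8 lineages also had their lowest level (21.3% of all genes). The part of T cell RNA in the level of Cd40lg was not tested.

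Cd27 encodes the receptor of CD70 on T cells and memory B cells. It had the widest range of the 36 members, 107-fold in CPM + 1. Its level was 200.5 CPM (191 to 211) in lymphoma 1 and 148 CPM (141 to 157) in lymphoma 2, against 0.88 CPM (0.40 to 1.68) in lymphoma 3 and 33.6 CPM (29.98 to 37.6) in lymphoma 4. No 2 of these intervals overlap. Tnfrsf8, the gene of CD30, an activation marker of lymphocytes, was at 40.9, 23.9, 0.59 and 18.9 CPM. Tnfsf4, a ligand gene that encodes OX40L, was at 19.2, 14.5, 0.20 and 8.47 CPM, with 2 counts in lymphoma 3. These 3 and Tnfrsf21, the gene of the death domain receptor DR6 (14.5, 13.6, 1.77 and 9.90 CPM), shared the order 1, 2, 4, 3 from high to low. That order was held by 4 of 36 members (11.1%) and 7.87% of all genes, and was singled out after its values were seen. T cell genes had the same order by sum and by median log2(CPM + 1), although Zap70 and Lck were lowest in lymphoma 4. The part of T cell genes in these levels was not tested. Against Cd3d, a chain of the T cell receptor complex, Cd27 made up 23.5% (22.5 to 24.5) of joint counts in lymphoma 1 and 23.6% (22.5 to 24.7) in lymphoma 2, and 37.9% (34.6 to 41.4) in lymphoma 4. For Tnfrsf8 these shares were 5.90%, 4.73% and 25.6%, and for Tnfsf4 2.86%, 2.93% and 13.3%. The intervals of lymphomas 1 and 2 overlapped for all 3 genes, for Tnfrsf8 only at their ends (5.29 to 6.55 and 4.13 to 5.39), and those of lymphoma 4 lay above both. From lymphoma 1 to lymphoma 4, Cd3d went from 653 to 55.1 CPM, and Lat and Tcf7 also dropped by a larger factor than Cd27. Cd3e (236 to 87.7 CPM) and Cd3g (416 to 117 CPM) dropped by a smaller factor than Cd27. The place of lymphoma 4 therefore depends on the T cell gene chosen, at least for Cd27. Shares against T cell genes other than Cd3d were not computed. In lymphoma 3 the 3 shares against Cd3d rest on 19, 16 and 12 counts. The share of Tnfrsf8 there (15.2 to 64.6) was above lymphomas 1 and 2 beyond the intervals but not clear of lymphoma 4, while the intervals of Cd27 (24.4 to 71.1) and Tnfsf4 (2.09 to 48.4) overlapped those of every other library.

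The OX40 receptor gene Tnfrsf4 did not follow its ligand. Tnfrsf4, known from activated T cells, was at 1.26, 6.80, 8.73 and 30.9 CPM, lowest in the library where Tnfsf4 was highest. The ligand held 93.8% (88.9 to 97.0) of the joint counts of Tnfsf4 and Tnfrsf4 in lymphoma 1, 68.1% (60.9 to 74.6) in lymphoma 2, 2.198% (0.267 to 7.71) in lymphoma 3 and 21.5% (17.4 to 26.1) for lymphoma 4. The gene next to Tnfrsf4, Tnfrsf18, encodes GITR, a receptor abundant on regulatory T cells, and the 2 lie 9.55 kb apart on chromosome 4 on the same strand. Tnfrsf18 was at 25.9, 30.8, 2.65 and 23.1 CPM. Tnfrsf4 made up 4.65% (2.25 to 8.39), 18.1% (14.1 to 22.6), 76.7% (68.0 to 84.1) and 57.2% (52.7 to 61.7) of the neighbours' joint counts, and the order of the libraries differed between these neighbours. Exons of Tnfrsf18 overlap Gm16008 on the opposite strand, and whether counting used strand is not stated. The 6 regulatory T cell markers summed to 117, 134, 24.2 and 313 CPM, but did not move together: 3 were lowest in lymphoma 1 and 3 in lymphoma 3. Foxp3 was at 13.5, 19.2, 15.1 and 25.1 CPM, while Ctla4 reached 120 CPM in lymphoma 4. The part of these markers in the levels of both receptors was not tested. The interval of Tnfrsf18 in lymphoma 1 (22.5 to 29.7) overlapped those in lymphomas 2 (27.3 to 34.6) and 4 (20.1 to 26.4).

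Further costimulatory receptors had their highest level in lymphoma 4. Tnfrsf9 encodes 4-1BB, induced on activated T cells and on dendritic cells, and was at 0.88, 6.80, 0.20 and 29.5 CPM. Tnfrsf14, the gene of the LIGHT receptor HVEM, was at 2.53, 7.14, 3.43 and 22.1 CPM. Tnfrsf25 encodes DR3, a death domain receptor of T cells, and had 1 and 3 counts in lymphomas 1 and 3, and 5.58 and 14.4 CPM in lymphomas 2 and 4. The ligand genes Tnfsf8 (CD30L) and Tnfsf10 (TRAIL) were also highest there, at 1.14, 4.57, 3.04 and 25.7 CPM and at 5.18, 9.48, 3.63 and 46.7 CPM. Of the remaining ligands of this group, Tnfsf9 (4-1BBL) and Tnfsf18 (GITRL) were highest in lymphoma 4 at 4.40 and 2.97 CPM, and Tnfsf14 (LIGHT) in lymphoma 2 at 6.02 CPM. Cd70 had 1 count in all, in lymphoma 4, although its receptor Cd27 was the most abundant receptor in lymphomas 1 and 2, at 44.5% (42.8 to 46.1) and 30.6% (29.2 to 32.0) of all receptor counts.

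Fasl, the ligand of the death receptor Fas, had 3, 27, 4 and 22 counts, at 0.38, 3.01, 0.39 and 2.42 CPM. Tnfrsf10b, the mouse TRAIL receptor with a death domain, was highest in lymphoma 3, at 0.25, 2.12, 4.02 and 2.64 CPM, where its ligand Tnfsf10 was lowest. Neither place is clear of the next library: the interval of Tnfrsf10b in lymphoma 3 (2.89 to 5.46) overlapped that in lymphoma 4 (1.69 to 3.93), and that of Tnfsf10 in lymphoma 3 (2.56 to 5.005) that in lymphoma 1 (3.72 to 7.03). Tnfrsf22 and Tnfrsf23, decoy receptors for TRAIL, and the related gene Tnfrsf26 form a cluster on chromosome 7 with gaps of 16.1 and 6.08 kb, and all 3 were highest in lymphoma 4. Tnfrsf26 was at 6.44, 14.7, 4.22 and 31.9 CPM, Tnfrsf22 at 3.54, 8.03, 4.42 and 13.0 CPM, and Tnfrsf23 at 0.13, 1.23, 0.59 and 4.51 CPM. Exons of Tnfrsf23 and Tnfrsf26 overlap E230032D23Rik on the opposite strand.

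Tnfrsf19 had the narrowest range of the 6 members highest by mean CPM. It encodes TROY, a receptor known from epithelial stem cells and the nervous system. Its level in lymphomas 1 to 4 was 79.3, 52.4, 41.4 and 119 CPM, with intervals of 73.2 to 85.8, 47.8 to 57.4, 37.6 to 45.6 and 112 to 127 that do not overlap, and a 2.84-fold range in CPM + 1. Its rank among the 41 members was 3 by mean CPM and 6 by mean FPKM (7.70 ± 3.36 FPKM, SD, n = 4). Tnfsf11, the gene of RANKL, the signal for osteoclasts, ranged from 4.81 to 11.7 CPM, whereas its receptor gene Tnfrsf11a stayed at or below 1.43 CPM. Tnfrsf12a, the TWEAK receptor gene, ranged from 1.26 to 4.40 CPM.

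Per length, by mean FPKM, the leading members were Ltb (83.7), Cd27 (43.4), Tnfrsf13b (25.2), Tnfrsf18 (15.5), Tnfrsf13c (15.2) and Tnfrsf19 (7.70). The SD over 4 libraries was 114 FPKM for Ltb and 42.9 FPKM for Cd27, so the means of these 2 genes differ by less than their spread. By mean CPM, which is not per length, the first 6 were Ltb, Cd27, Tnfrsf19, Tnfrsf13b, Tnfrsf1b (65.2 CPM) and Tnfrsf13c, so Tnfrsf18 entered and Tnfrsf1b left on the FPKM scale.

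Of 16 ligand and receptor pairs, 14 had both genes past the filter, and in 6 of these both were highest in lymphoma 4. Among the 6 were Tnfsf13b with Tnfrsf13c and Tnfsf12 with Tnfrsf12a, whose ligands passed the filter only through lymphoma 4. In 5 of the 14 both were lowest in lymphoma 3. Of the single members, 69.4% were highest in lymphoma 4 and 58.3% lowest in lymphoma 3. Counts for other pairings of members were not made, so no agreement within pairs is read from these numbers. Pairs that share a gene are counted separately. On the genome, 13 neighbouring pairs lay within 150 kb and held 22 of the 41 members. Of the 9 with both genes past the filter, 3 had the same order of libraries: Ltb with Tnf, Tnf with Lta, and Tnfrsf22 with Tnfrsf23. The pairs at the Tnf locus share Tnf, and no share over other neighbouring genes was computed.

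Lymphoma 2 could be set against lymphoma 1 member by member. For Cd27, Tnfrsf8, Tnfsf4, Tnfrsf19 and Tnfsf18 the level in lymphoma 2 was within 0.8 to 1.25 times 0.668 of that in lymphoma 1, the median ratio of the 35 genes that were low in lymphomas 3 and 4. None of these members was itself that low in both lymphomas 3 and 4, and Tnfrsf19 and Tnfsf18 were highest in lymphoma 4. The share of all genes within this window was not computed, so no excess of members is read from it. The ratios themselves were 0.740 for Cd27, 0.583 for Tnfrsf8, 0.755 for Tnfsf4, 0.661 for Tnfrsf19 and 0.706 for Tnfsf18, whose ratio rests on 5 and 4 counts. Among members with higher levels in lymphoma 2, the ratio was 13.0 for Ltb, 13.9 for Tnfrsf13c and 13.6 for Cd40, the last 2 on 14 counts in lymphoma 1. Tnfrsf25 had 1 count in lymphoma 1 and 50 in lymphoma 2. The B cell genes summed to 1816 CPM in lymphoma 2 and 107 CPM in lymphoma 1.

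**Figure D5:**
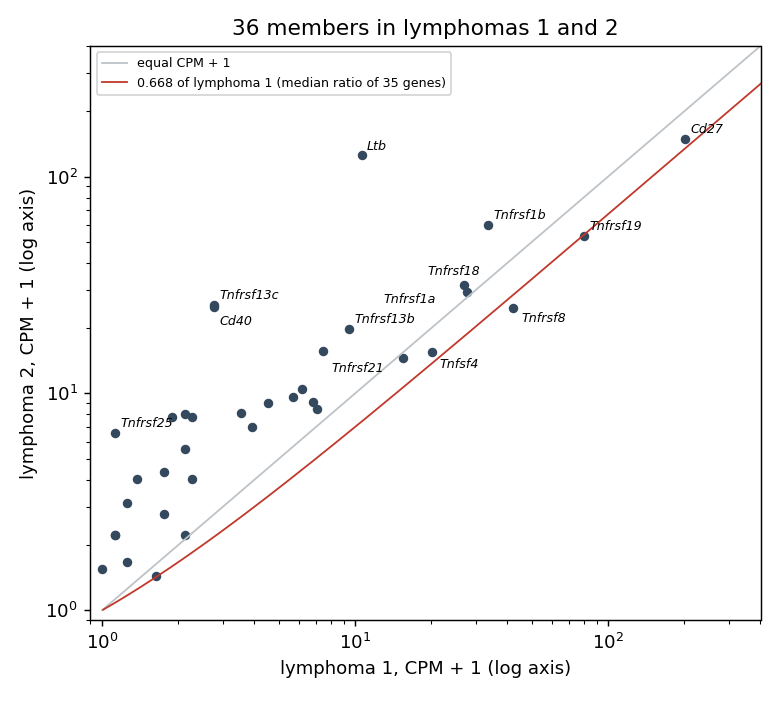
CPM + 1 of the 36 members in lymphoma 2 against lymphoma 1 (log axes), with the line of equal values in grey and the line at 0.668 of lymphoma 1 in red. Cd27, Tnfrsf8, Tnfsf4 and Tnfrsf19 lie near the red line, and Ltb, Tnfrsf13c and Cd40 lie far above the grey one.

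Genes that act behind these receptors had smaller spreads in these libraries. The median SD of log2(CPM + 1) was 0.72 over TRAF adaptors, 0.64 over death domain genes, 0.70 over canonical and 0.95 over noncanonical NF-kB genes and 0.57 over shedding genes, against 1.20 over members. Of 9 TRAF genes 3 differed 8-fold or more: Traf1, itself a target of NF-kB, at 1.26, 32.0, 7.56 and 70.4 CPM, and Traf4 and Traip, which were lowest in lymphoma 4. The most abundant was Traf7 at 110 ± 21.3 CPM (SD, n = 4), and Traf2, a core adaptor, stayed at 48.4 ± 3.13 CPM. Of 15 canonical NF-kB genes 13 had their top level in lymphoma 4 (34.0% of all genes). The bottom level was in lymphoma 1 for 11 of the 15 (35.7% of all genes), and 2 differed 8-fold or more (16.3%). The same shares of all genes stand beside the other lists of this paragraph. Nfkb1, the gene of p105 and p50, was at 186, 214, 125 and 403 CPM, and Rel, the gene of c-Rel, at 1.52, 21.2, 11.1 and 70.5 CPM. All 8 noncanonical genes were highest in lymphoma 4, with Birc3, which encodes cIAP2, at 16.2, 60.2, 20.02 and 165 CPM and Map3k14, the gene of the kinase NIK, at 2.02, 31.0, 31.4 and 52.4 CPM. Birc2, Birc3, Traf2, Traf3 and Chuk each stand on 2 of these lists. Of 13 death domain genes 1 differed 8-fold or more (Birc3), and 7 had their top level in lymphoma 4. Among 5 shedding genes the largest SD was that of Rhbdf2 (5.18, 27.9, 78.8 and 56.5 CPM), and Adam10 was the most abundant at 115 ± 25.2 CPM.

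Among superfamily genes outside the name rule, 5 of 7 passed the filter and 1 differed 8-fold or more (16.3% of all genes). That gene was Ngfr, the nerve growth factor receptor, at 0, 1.23, 0.39 and 15.8 CPM. Rell1, a relative of the receptor gene Relt, had the highest mean and was at 60.8, 47.3, 6.87 and 14.1 CPM. Fas, the death receptor, was at 7.20, 10.4, 3.14 and 5.06 CPM. Relt was at 16.9, 26.99, 26.7 and 55.6 CPM, and Eda and Eda2r did not pass the filter, with 1 and 2 counts in all.

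Other measures differed across the same libraries, and their part in the levels of the members was not tested. The 9 genes of the immediate early and stress list, such as Jun and Hspa1a, summed to 347, 3641, 340.2 and 3027 CPM, high in lymphomas 2 and 4. Proliferation genes summed to 4176, 3115, 4823 and 595 CPM, lowest in lymphoma 4 for 14 of 15 (33.2% of all genes). Longer genes were relatively higher in lymphoma 4, with a Spearman rho across 13409 genes of -0.262, -0.237 and -0.201 between length in exons and log2 of the ratio to lymphoma 4 in lymphomas 1, 2 and 3. The members were short, with a median exonic length of 2302.5 bases past the filter, against 4267 over those 13409 genes. For the 25 members highest in lymphoma 4 that median was 2236 bases.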

How the data were processed

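Poly(A) RNA from spleen cells of 4 lymphoma samples was sequenced, 1 library each. Gene-level read counts, in whole numbers, were deposited by the authors, and per the submitters' processing notes the tools were STAR 2.4.2a and Cufflinks 2.2.1, with mm10 as the build. A second deposited table was read here as FPKM although no unit is written in it. The median ratio of its values to CPM was 0.342 in short, 0.168 in middle and 0.105 in long genes, split by exonic length into sets of 4470, 4470 and 4469 genes. It has 5 columns that match no sample label and were not used. For annotation, strand setting and filters the entry is: not given in the sources used here.

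Of 24969 rows, 26 with names turned into dates (0.191% to 0.201% of counts) were left out. CPM were computed on library sizes multiplied by TMM factors (edgeR 4.0.16, R 4.3.3) over the 13543 genes with 1 CPM, before TMM scaling, in at least 1 library. Rules of size were 8-fold in CPM + 1 and, for a library standing apart, 10 CPM in the high libraries. The code of the rules was run on simulated counts with planted changes. The simulated noise between libraries was lower than in these data, so that run gives no rate of false calls here. Positions and lengths are from GENCODE M21 (GRCm38), promoters from RefSeq. Named with values in every library were the members with an 8-fold range and the 6 highest by mean CPM or FPKM, and in each pathway list the genes with the highest mean and the largest SD. A gene that this rule names is not reported here. Other genes, and the gene pairs whose shares are given, were chosen after their values were seen. The members and lists were chosen with earlier results of these data known. Alternatives were DESeq2 1.42.0 size factors, the FPKM table, no filter, a mean of 5 CPM, a pseudocount of 0.25 CPM, a 4-fold rule, and leaving out each library.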

Additional observations from a re-analysis of the deposited data

Results flagged for a closer look

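Tnfrsf18 lay far below the rest in lymphoma 3, at 2.65 CPM against 23.1 to 30.8 CPM, a gap of 0.872 of its whole range in log2(CPM + 1). Tnfsf13b lay far above the rest in lymphoma 4, at 10.3 CPM against 0.25 to 0.79 CPM, a gap of 0.839 of its range. It passed the filter only through lymphoma 4. Both gaps exceed Dixon's critical value for 4 libraries at 95%; chance passes it in about 1 group of 20, and 36 members were examined. Tnfsf13 had 0 counts in each library but reached 0.791 FPKM in lymphoma 3, above the 0.180 CPM per kilobase that a count of 0 allows there.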

How the results depend on the processing

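With DESeq2 size factors the same 17 members differed 8-fold or more. On FPKM values, 7 did, all among the 17, and 1 stood apart, with 6.63% of all genes past 8-fold. There too 1 was added to each value, and the cut-off for standing apart was 10, as for CPM. FPKM values were lower by median than CPM, so adding 1 narrows their ranges more. The part of this in the lower count was not tested. With a pseudocount of 0.25 CPM 5 members stood apart, and with a 4-fold rule 7. Leaving out each library in turn gave 8 to 16 members with an 8-fold range (8 without lymphoma 3, 9 without lymphoma 4), 3 to 7 standing apart (7 without lymphoma 2 or 4), 5 to 24 highest in lymphoma 2 (24 without lymphoma 4, 9 without lymphoma 1), 2 to 4 highest in lymphoma 3, 13 to 28 lowest in lymphoma 1 (28 without lymphoma 3), 0 to 5 lowest in lymphoma 2 and 0 to 6 lowest in lymphoma 4 (6 without lymphoma 3). Members highest in lymphoma 4 numbered 25 to 27, and those lowest in lymphoma 3 numbered 20 to 30, over the same settings. The share of all genes with an 8-fold range lay between 8.94% and 16.2% in those settings. For standing apart, and for the highest or lowest library, the share of all genes was not computed under any alternative. Those counts of members therefore have no reference here. Of the log2 ranges of 19 named members, 13 of 76 moved by more than 1 SD when a library was left out. The ratio of lymphoma 2 to lymphoma 1 was 0.609 with DESeq2 size factors, an alternative added after the data were seen. Genes under 10 counts in a library are limited by depth.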
